A study of Mus musculus with 5 samples.

Results

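Binding of the transcription factors IRF4 and IRF8 was examined at Myc and 9 cell cycle genes of the mouse: the cyclin genes Ccnd2, Ccnd3 and Ccne1, the kinase genes Cdk4, Cdk6 and Cdk8, and the inhibitor genes Cdkn1a, Cdkn1b and Cdkn2c. The 10 genes were chosen by name, out of 22380 protein-coding genes, and not by a measured value, but with earlier results of these data known. An interval of a deposited peak list was counted for a gene when its centre lay in the gene body or within 50 kb of it (GENCODE M1 annotation on NCBIM37, which is mm9). For Myc, intervals up to 500 kb away were listed as well. By the 50 kb rule the 10 genes held 19 of the 5590 intervals in the lists, at 11 separate places, where overlapping intervals of different lists count as 1 place. With the wider region of Myc the numbers were 28 intervals and 17 places.

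The data were chromatin immunoprecipitation followed by sequencing (ChIP-seq) of C57BL/6 wild-type B cells, with 1 library per group and so no replicate check of any value. For 2 groups IRF4 was precipitated from naive splenic B cells cultured with 10 μg/ml lipopolysaccharide (LPS), a bacterial B cell activator, for 72 h or for 48 h. IRF8 was precipitated from germinal centre (GC) B cells sorted 13 days after immunisation with the hapten-carrier NP-KLH, and from LPS cultures of 72 h and of 48 h. The lists held 898 intervals (IRF4, 72 h), 1573 intervals (IRF4, 48 h), 1826 intervals (IRF8, GC), 1059 intervals (IRF8, 72 h) and 234 intervals (IRF8, 48 h). The LPS libraries had 3766015 tags (IRF4, 72 h), 3396941 tags (IRF4, 48 h), 3065426 tags (IRF8, 72 h) and 4375858 tags (IRF8, 48 h), and the depth of the GC library is not given in its list. Few tags lay in peaks: 0.45% (IRF4, 72 h), 0.82% (IRF4, 48 h), 0.52% (IRF8, 72 h) and 0.18% (IRF8, 48 h). The deepest library, IRF8 at 48 h, thus had the lowest share in peaks and the shortest list. The part of this difference in the list lengths and tag ratios below was not tested. Values below are normalised tag counts, which the authors scaled to a library of 10000000 tags, with exact 95% Poisson intervals that cover counting error only. A listed interval had at least 18.6 normalised tags (IRF4, 72 h), 23.6 (IRF4, 48 h), 22.8 (IRF8, 72 h) or 20.6 (IRF8, 48 h), which is 7 to 9 tags, so a place that a list leaves out has an unknown number of tags and is not shown to be unbound. The GC list gives positions without signal and came from another peak caller than the LPS lists. Caller, culture and cell handling cannot be told apart wherever it is set beside them.

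MYC is a transcription factor that drives growth and division of activated B cells. D-type cyclins with CDK4 or CDK6, and then cyclin E with CDK2, carry cells from G1 into S phase, and inhibitors of the INK4 and CIP/KIP families hold these kinases back. IRF4 and IRF8 are related factors that bind DNA weakly alone and more firmly beside a partner, at composite elements with the ETS factor PU.1 (EICE) or with AP-1 factors (AICE), or at the interferon-stimulated response element (ISRE). The study's title places the 2 factors in mutual antagonism over B cell fate.

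The sequences at 5 places are given because the results below turn on them: the place next to Myc shared by both factors, the strongest place of the distal Myc region in the IRF4 72 h list, the place in Cdk6 shared by an IRF4 and the GC list, the place in Cdk8 listed in every LPS library, and a place beyond the 50 kb limit of Ccnd2. Each line holds 201 bases of the plus strand of mm9, centred on an interval. Capitals mark matches to the elements searched: EICE (GGAANNGAAA), the core of the ISRE (GAAANNGAAA), AP-1 (TGACTCA or TGAGTCA), a PU.1-type site (GAGGAAGT) and the composite elements AICE1 and AICE2, all read on both strands. An AP-1 match can lie within an AICE match, and EICE and ISRE matches can overlap.
Myc, chr15:61831187-61831387: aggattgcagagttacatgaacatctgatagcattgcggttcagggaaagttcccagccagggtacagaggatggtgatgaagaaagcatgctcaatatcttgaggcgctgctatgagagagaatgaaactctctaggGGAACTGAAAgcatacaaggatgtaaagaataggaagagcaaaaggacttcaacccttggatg
Myc distal, chr15:62071629-62071829: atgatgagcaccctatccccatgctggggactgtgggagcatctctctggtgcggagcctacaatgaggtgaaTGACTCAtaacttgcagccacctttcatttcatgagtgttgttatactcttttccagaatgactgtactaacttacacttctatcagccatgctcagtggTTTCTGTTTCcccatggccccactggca
Cdk6, chr5:3501293-3501493: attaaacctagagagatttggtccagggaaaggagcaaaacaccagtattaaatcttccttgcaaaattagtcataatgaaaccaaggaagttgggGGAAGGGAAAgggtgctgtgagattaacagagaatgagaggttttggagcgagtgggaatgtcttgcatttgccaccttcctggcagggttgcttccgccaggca
Cdk8, chr5:147072620-147072820: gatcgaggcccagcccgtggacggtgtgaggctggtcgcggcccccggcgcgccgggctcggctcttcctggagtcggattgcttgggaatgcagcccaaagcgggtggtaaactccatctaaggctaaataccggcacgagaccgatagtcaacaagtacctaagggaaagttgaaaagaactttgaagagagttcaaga
Ccnd2, chr6:127195960-127196160: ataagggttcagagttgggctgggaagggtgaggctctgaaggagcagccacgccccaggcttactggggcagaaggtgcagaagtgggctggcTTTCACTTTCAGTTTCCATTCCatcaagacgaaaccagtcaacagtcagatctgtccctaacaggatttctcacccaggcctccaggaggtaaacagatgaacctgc
The Myc place carries the EICE GGAACTGAAA at chr15:61831325-61831334, and the Cdk6 place the EICE GGAAGGGAAA at chr5:3501389-3501398, at the centre of its IRF4 interval. The distal Myc place has an AP-1 site and an ISRE core on the minus strand. Its window is centred on the IRF4 48 h interval. The ISRE core lies 78 bp from that centre and 104 bp from the centre of the IRF4 72 h interval. The Cdk8 window has none of the 6 elements. Its letters read like a fragment of a gene for large-subunit ribosomal RNA, with which they were not compared here. The Ccnd2 window has an EICE on the minus strand that overlaps an ISRE core, beside a second ISRE core that overlaps the first.

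Of the 10 genes, 5 had an interval in at least 1 list (Myc, Ccnd3, Ccne1, Cdk6 and Cdk8) and 5 had none (Ccnd2, Cdk4, Cdkn1a, Cdkn1b and Cdkn2c). Among all protein-coding genes, 28.1% had an interval in any list by the same rule. Each list reached few of the 10 genes. The IRF4 72 h list had an interval at 2 of them (Cdk6 and Cdk8), against 7.61% of all protein-coding genes. The IRF4 48 h list had one at 4 (Myc, Ccnd3, Cdk6 and Cdk8), against 11.5% of all genes. The GC list had one at 3 (Myc, Ccne1 and Cdk6), against 15.6% of all genes. The IRF8 72 h list had one at 3 (Myc, Ccnd3 and Cdk8), against 8.81% of all genes, and the IRF8 48 h list at 2 (Myc and Cdk8), against 1.99%. With 10 genes, each gene makes up 10.0% of the set, so these shares are coarse. The median gene body was 71.6 kb for the genes with an interval, against 6.31 kb for the 5 genes with none. Not all followed this: Myc (4.98 kb) and Ccne1 (9.55 kb) had an interval, and the longer Ccnd2 (25.3 kb) and Cdkn1a (9.74 kb) had none. Over all protein-coding genes the medians were 21.2 kb with an interval and 13.5 kb without one, and the part of gene length in the counts was not tested.

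**Figure D1:**
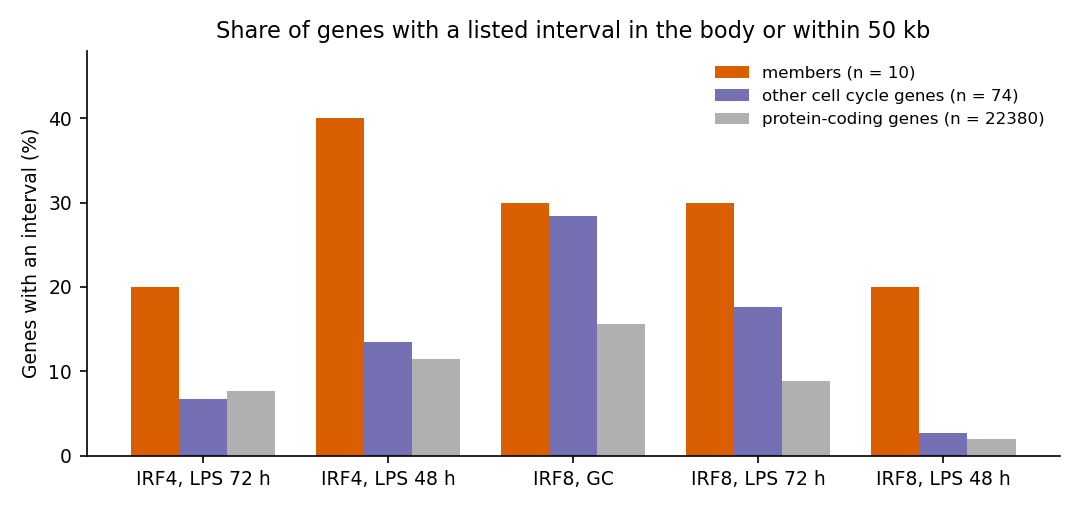
Bars give the percentage of genes with an interval in the body or within 50 kb (y axis) for each of the 5 lists (x axis), for the 10 genes described here, 74 other cell cycle genes and all 22380 protein-coding genes. The 10 genes stand at 20.0% to 40.0% in every list, which is 2 to 4 genes, and all protein-coding genes at 1.99% to 15.6%.

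None of the 28 intervals lay within 1 kb of the 5′ end of its gene. The share of all listed intervals that close to a gene's start is not given, so this count does not set these genes apart. By their centres, the intervals were in introns or between protein-coding genes. The GC interval at Myc +52.9 kb covers the start of the non-coding gene Pvt1, and the Cdk8 intervals cover a short gene annotated as a microRNA (AC113316.1, chr5:147072579-147072660). For 27 of the 28, and for 18 of the 19 by the 50 kb rule, the 24-base words around the centre had a median of 1 copy in the genome. The exception lay upstream of Ccnd3. Most intervals of every list were single-copy in this way. The IRF4 lists had 832 of 898 at 72 h and 1494 of 1573 at 48 h. The GC list had 1685 of 1826. The LPS lists of IRF8 had 914 of 1059 at 72 h and 177 of 234 at 48 h. A median of 1 leaves room for repeated parts: single words had up to 2469 copies at Ccne1 -16.8 kb, 5 at Cdk8 +29.9 kb and 2 at Cdk6 -2.5 kb. Of the places by the 50 kb rule, 6 were in 1 list and 5 in more than 1. The share over all places of the lists is not given, so this count does not set these genes apart.

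The place nearest to Myc (chr15:61816946-61821929) lay 14.3 kb downstream of its 5′ end (chr15:61831029-61831610 over 3 lists), between Myc and Pvt1, a long non-coding RNA gene. Both factors were listed there. It had 64.8 normalised tags in the IRF4 48 h library (interval 40.6 to 98.1), 35.9 in the IRF8 72 h library (17.9 to 64.2) and 25.1 in the IRF8 48 h library (12.5 to 45.0). The IRF4 72 h and the GC lists did not hold it. In the IRF4 48 h list it ranked 169 of 1573, and for IRF8 it ranked 294 of 1059 at 72 h and 139 of 234 at 48 h. The centres lay within 81 bp of each other. The EICE shown above lies within 100 bp of all 3 centres, an element that 14.6% of the intervals had in the IRF4 48 h list, 22.1% at 72 h and 19.5% at 48 h in those of IRF8.

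At 48 h the IRF4 library had 2.58 times the normalised tags of the IRF8 library at this Myc place (exact 95% interval 1.20 to 5.88, from 22 and 11 tags). The exact binomial test, two-sided, gave an adjusted p of 0.0622 over the 122 places that both lists share, so the difference was not called. IRF8 had 1.43 times as many at 72 h as at 48 h (0.561 to 3.63), with an adjusted p of 0.645 over 138 places by the same exact test, and with tags scaled to the median of the shared places instead the ratio was 0.952, on the other side of 1. These tests compare 2 libraries and not 2 conditions, and only places that passed the threshold in both lists enter them.

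Further out, all intervals lay on the side of Pvt1: 13 intervals within 500 kb of Myc were downstream of its 5′ end and 0 were upstream. The region held 8 places, 4 of them in more than 1 list, again with no share over all places beside it. Pvt1 spans 52.6 to 393 kb from that end, and the centres of 6 of the 8 places lay in its introns, although the first of them, a GC interval, covers its start. IRF4 and GC IRF8 intervals were at different places here, and how often that holds over the whole lists is not given. The GC list had intervals at +52.9 kb (chr15:61869304-61870366) and at +196.1 kb (chr15:62012528-62013602), neither with one of the 6 elements within 100 bp of its centre. The whole interval at +196.1 kb holds an AP-1 site. The LPS lists of IRF8 had no interval beyond +14.3 kb.

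The IRF4 lists had 5 distal places. At +254.8 kb (chr15:62071452-62071979), which carries the AP-1 site and ISRE core shown above, IRF4 had 55.8 normalised tags in the 72 h library (34.5 to 85.2) and 44.2 in the 48 h library (24.7 to 72.8). This place ranked 76 of 898 IRF4 intervals at 72 h and 490 of 1573 at 48 h. The AP-1 site lies 3 bp from the centre of the 72 h interval, and 18.5% of the intervals of that list had an AP-1 site within 100 bp. At +340.4 kb (chr15:62157135-62157688) IRF4 had 26.6 normalised tags in the 72 h library (12.7 to 48.8) and 35.3 in the 48 h library (18.3 to 61.7), with an AP-1 site and a PU.1-type site in both intervals. At +373.2 kb (chr15:62189838-62190348) it had 37.2 in the 72 h library (20.3 to 62.4) and 58.9 in the 48 h library (36.0 to 90.9), with none of the elements. The counting intervals of the 2 times overlapped at each of these places. The places at +302.0 kb (chr15:62118728-62119228, 38.3 normalised tags) and +476.5 kb (chr15:62293192-62293692, 44.2) were listed for IRF4 at 48 h only, and neither had an element. All of these centres were closer to the start of Myc than to that of any other protein-coding gene.

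**Figure D2:**
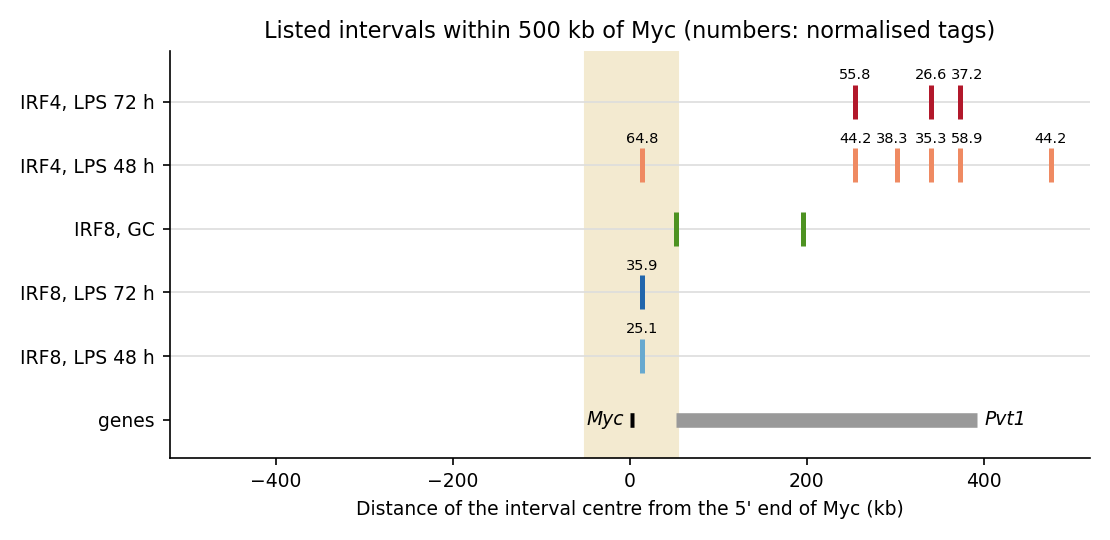
Each tick is a listed interval at its distance from the 5′ end of Myc in kb (x axis), by list (rows), with the normalised tags of LPS intervals above it; the shaded band is the gene body and 50 kb on either side. All 13 intervals lie downstream, and the place at 14.3 kb holds 1 IRF4 and 2 IRF8 intervals.

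The 2 D-type cyclin genes differed in what lay near them. At Ccnd3 (chr17:47642000-47736632), which encodes cyclin D3, the IRF4 48 h list had an interval in an intron, 10.5 kb from the 5′ end (chr17:47652275-47652775). It had 67.7 normalised tags (42.9 to 102), ranked 146 of 1573 and had none of the 6 elements. No other list had an interval in the body of Ccnd3. Upstream of the gene the IRF8 72 h list had intervals at -23.5 kb (chr17:47618242-47618742) and -19.3 kb (chr17:47622440-47622940), each with 29.4 normalised tags (13.4 to 55.7, from 9 tags). These lie nearer to the start of Taf8, a gene of the general transcription factor TFIID. The sequence at -23.5 kb is repeated: its 24-base words had a median of 4 copies and up to 12302. The nearest intervals of the IRF4 72 h, GC and IRF8 48 h lists were 169 kb away from the gene body.

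Ccnd2 (chr6:127075797-127101066, minus strand), which encodes cyclin D2, had no interval within 50 kb in any list. All 5 lists had one between 85.8 and 95 kb upstream of it, in a stretch with no annotated gene at the interval centres, where the nearest start of a protein-coding gene is that of Gm4968. The place at 95 kb had 23.9 normalised tags in the IRF4 72 h library (10.9 to 45.4), 91.3 in the IRF8 72 h library (60.7 to 132) and 36.6 in the IRF8 48 h library (20.9 to 59.4). The GC list had an interval there too. In the IRF4 72 h list it ranked 774 of 898, whereas for IRF8 it ranked 31 of 1059 at 72 h and 61 of 234 at 48 h. The IRF4 48 h list did not have it, but had one of 38.3 normalised tags 89.1 kb upstream (20.4 to 65.4), inside a second GC interval (chr6:127188774-127190794), and the IRF4 72 h list one of 37.2 at 85.8 kb (20.3 to 62.4). The EICE (GGAATGGAAA at chr6:127196066-127196075) and the 2 ISRE cores of the 95 kb place are shown above. Since these intervals lie beyond the 50 kb limit they are given as values, with no test.

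Ccne1 (chr7:38883003-38892553, minus strand), which encodes cyclin E1, had a single interval, from the GC list, 16.8 kb upstream (chr7:38908025-38910756). It was 2732 bp wide, against a median of 1145 bp for that list, and had none of the elements within 100 bp of its centre. Part of it is repeated sequence, and 2347 other stretches of the genome were similar to its central 201 bases. The nearest LPS interval was 322 kb away, in the IRF8 48 h list.

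Cdk6 (chr5:3343893-3523218), whose kinase pairs with D-type cyclins and which has a gene body of 179 kb, had the most intervals by the 50 kb rule, 7 in the widest window of the set (279 kb), all from the IRF4 and GC lists. The IRF8 LPS lists had none near it. At +12 kb, in an intron (chr5:3355679-3356661 over both lists), IRF4 had 31.9 normalised tags in the 72 h library (16.5 to 55.7) and 35.3 in the 48 h library (18.3 to 61.7). The centres of those 2 intervals were 482 bp apart, and the intervals overlapped by 19 bp. At +150.9 kb, also in an intron (chr5:3494546-3495091), IRF4 had 29.2 in the 72 h library (14.6 to 52.3) and 38.3 in the 48 h library (20.4 to 65.4). Neither place had an element within 100 bp of a centre, and the whole IRF4 48 h interval at +12 kb holds an AP-1 site. At +157.5 kb the IRF4 48 h interval, with 32.4 normalised tags (16.2 to 57.9) and the EICE shown above, overlapped a GC interval of IRF8 (chr5:3501014-3502149). It ranked 970 of 1573. The GC list had a further interval 2.49 kb upstream of the 5′ end (chr5:3341005-3341795), the closest of all to the start of a gene described here, and 11 other stretches of the genome were similar to its centre. Cdk4, the other kinase of D-type cyclins, had no interval within 50 kb. The nearest was one of IRF8 at 72 h, 86.1 kb upstream, with 26.1 normalised tags (11.3 to 51.4), close to the start of Ctdsp2.

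Cdk8 (chr5:147042806-147114450), the kinase of the Mediator complex, had the strongest interval of the set. It lay in an intron, 29.9 kb from the 5′ end (chr5:147072470-147073002 over all lists), and was the sole place at these genes in all 4 LPS lists. The GC list did not hold it, its nearest interval being 374 kb away. It had 191.2 normalised tags in the IRF4 72 h library (150 to 241), 247.3 in the IRF4 48 h library (197 to 306), 97.9 in the IRF8 72 h library (66.0 to 140) and 52.6 in the IRF8 48 h library (33.3 to 78.9). Both IRF4 libraries stood above both IRF8 libraries, and their counting intervals did not overlap those of IRF8. It ranked 16 of 898 in the IRF4 72 h list and 14 of 1573 in the IRF4 48 h list, and among single-copy intervals 2 and 1. In the IRF8 lists it ranked 25 of 1059 at 72 h and 36 of 234 at 48 h, and among single-copy intervals 5 and 14. Single-copy here means that the short words around the centre had a median of 1 copy in the genome assembly. Copies that the assembly leaves out are not counted, so these ranks do not show that all tags came from this place. The authors' fold over the surrounding 10000 bp was 85.5 for IRF4 at 72 h, 99.8 for IRF4 at 48 h, 63.3 for IRF8 at 72 h and 33.6 for IRF8 at 48 h.

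**Figure D3:**
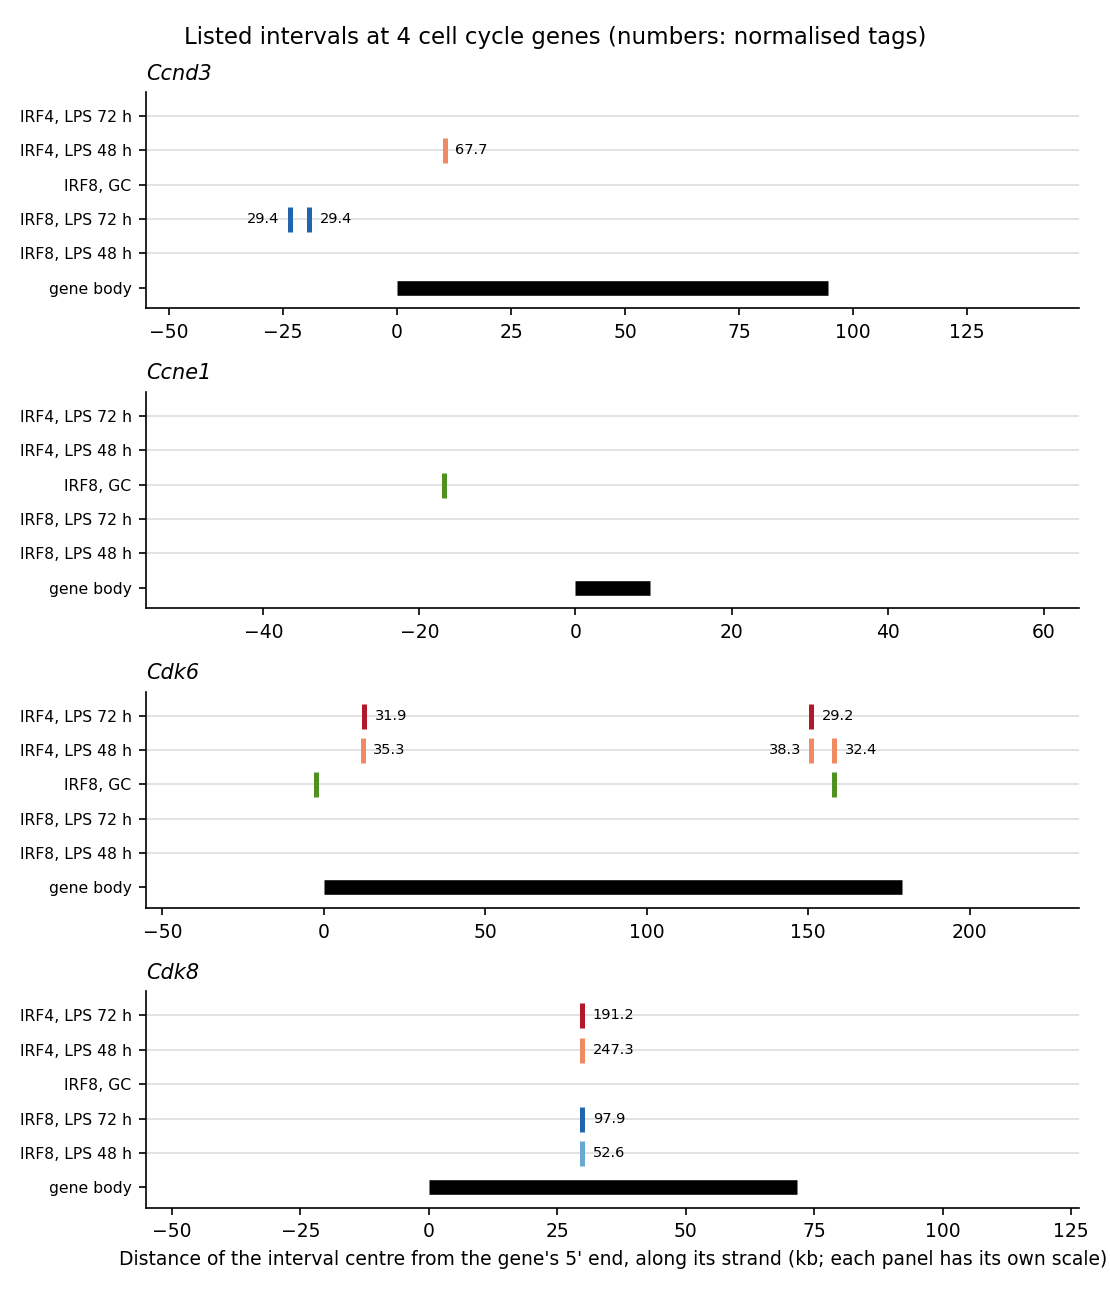
Ticks are listed intervals at Ccnd3, Ccne1, Cdk6 and Cdk8 by distance from the 5′ end of each gene in kb (x axis, own scale per panel) and by list (rows), with normalised tags beside LPS intervals and the gene body as a black bar. Cdk6 has IRF4 and GC ticks and no LPS tick of IRF8, and Cdk8 has a tick at 29.9 kb in all 4 LPS rows.

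At 48 h IRF4 had 4.70 times the normalised tags of IRF8 at the Cdk8 place (exact 95% interval 2.94 to 7.82, from 84 and 23 tags), with an adjusted p of 1.55e-11 over 122 shared places by the exact binomial test. The ratios of 99.2% of the shared places were at or under it. At 72 h the ratio of IRF4 to IRF8 was 1.95 (1.26 to 3.10), with an adjusted p of 0.162 over 258 places by the same exact test. IRF8 had 1.86 times as many tags at 72 h as at 48 h (1.05 to 3.36), with an adjusted p of 0.129 over 138 places, and 1.24 times as many with scaling to the median of the shared places. IRF4 had 0.773 times as many at 72 h as at 48 h (0.556 to 1.07), with an adjusted p of 0.530 over 536 places, and 1.01 times as many with that scaling. A test of the difference of those 2 time ratios, added after the data were seen, gave 0.415 for IRF4 over IRF8 and an adjusted p of 0.0718 over the 80 places in all 4 LPS lists (exact conditional test), so it was not called, while 7.5% of those places were. The median of that difference over the 80 places was 0.646, and relative to it the Cdk8 value was 0.643 (adjusted p 1.0 by the same exact test).

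The Cdk8 window lacks all 6 elements within 100 bp of the centre and resembles other parts of the genome. Farther out, 216 to 220 bp from the centre, an ISRE core (GAAAAAGAAA, chr5:147072964-147072973) lies inside the IRF4 72 h interval and those of IRF8 at 72 h and 48 h. That core crosses the end of the IRF4 48 h interval, at chr5:147072970, and so was not counted in it. Over all whole intervals, 11.9% had an ISRE core in the IRF4 72 h list, 16.3% in that of IRF8 at 72 h and 10.7% in that of IRF8 at 48 h. Its 24-base words had a median of 1 copy and at most 5, but 10 other stretches on 7 chromosomes were similar to it (80 to 203 bp aligned, at 79.1% to 92.7% identity). An interval lay at 1 of those 10, on chromosome 2, in both IRF4 lists. Of the 80 places in all 4 LPS lists, 52 were single-copy, and 23 of those 52 had no element within 100 bp. The 3 places most like it in tags over the 4 LPS libraries (root mean square difference of log2 normalised tags) were one in an intron of Filip1l (0.235), one between genes whose nearest start is that of Pxmp3 (0.377) and one in an intron of Zc3h7a (0.43). Each of them had a median of 3 copies and no element. The place near Filip1l had 154.0 normalised tags for IRF4 at 72 h, 194.3 for IRF4 at 48 h, 94.6 for IRF8 at 72 h and 52.6 for IRF8 at 48 h. The part of reads from similar sequence in the Cdk8 tag counts, inside or outside the genome assembly, was not tested.

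**Figure D4:**
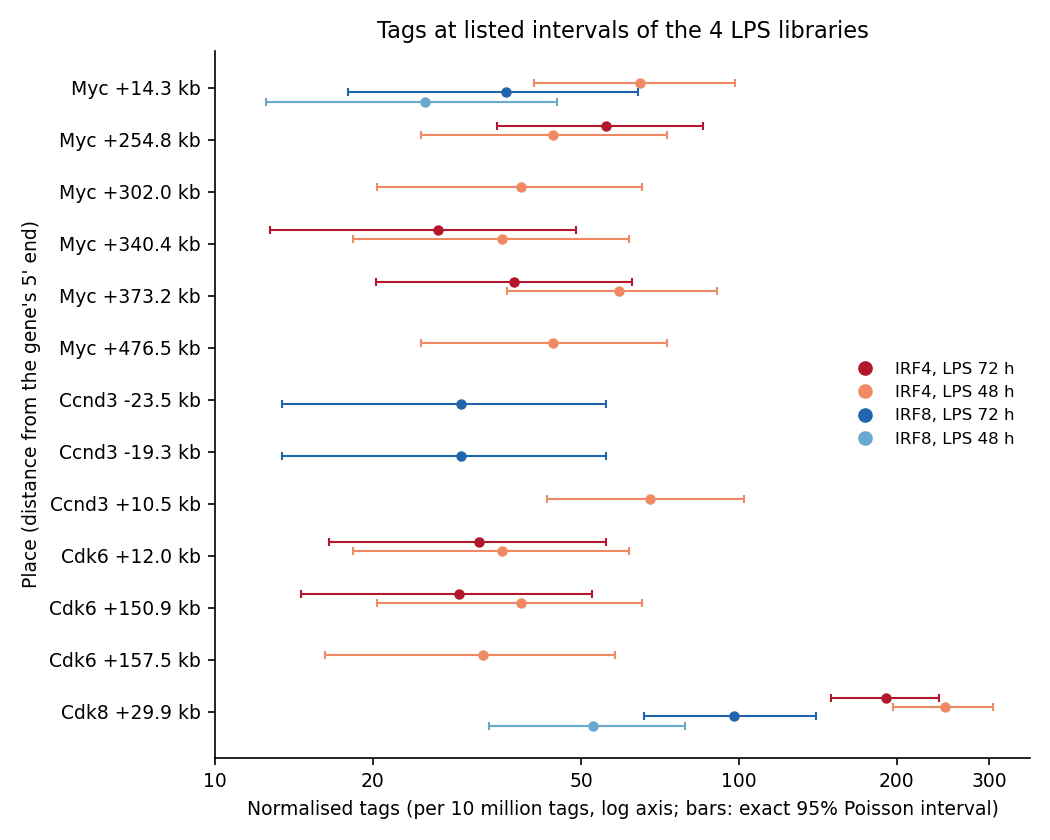
Points are normalised tags per 10000000 (x axis, log scale) with exact 95% Poisson intervals at each place listed in an LPS library (rows, by gene and distance from its 5′ end), coloured by library. The Cdk8 place reaches 191.2 and 247.3 in the IRF4 libraries, and the other places lie between 25.1 and 67.7.

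Over the set, few tag ratios stood apart from those of all shared places. For IRF4 at 72 h over 48 h, 0 of 6 places were called, against 2.61% of all shared places, and 0 changed by more than 2-fold, against 13.6%. The 6 ratios ran from 0.631 at Myc +373.2 kb to 1.26 at Myc +254.8 kb, around a median of 0.765 for all 536 shared places. At Cdk6 +12 kb the ratio was 0.902 and moved to 1.18, past 1, with scaling to that median. The intervals compared there overlap by only 19 bp, so that ratio sets largely separate stretches against each other. With an overlap of at least 250 bp required, it is not a shared place. For IRF8 at 72 h over 48 h, 0 of 2 places were called, against 12.3%, and 0 passed 2-fold, against 15.2%, where the median of all shared places was 1.5. For IRF4 over IRF8 at 72 h, 0 of 1 place was called, against 0.388%, and 0 passed 2-fold, against 6.2%. For IRF4 over IRF8 at 48 h, 1 of 2 places was called (Cdk8), against 18.0%, and both passed 2-fold, against 25.4%, with a median of 1.37.

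**Figure D5:**
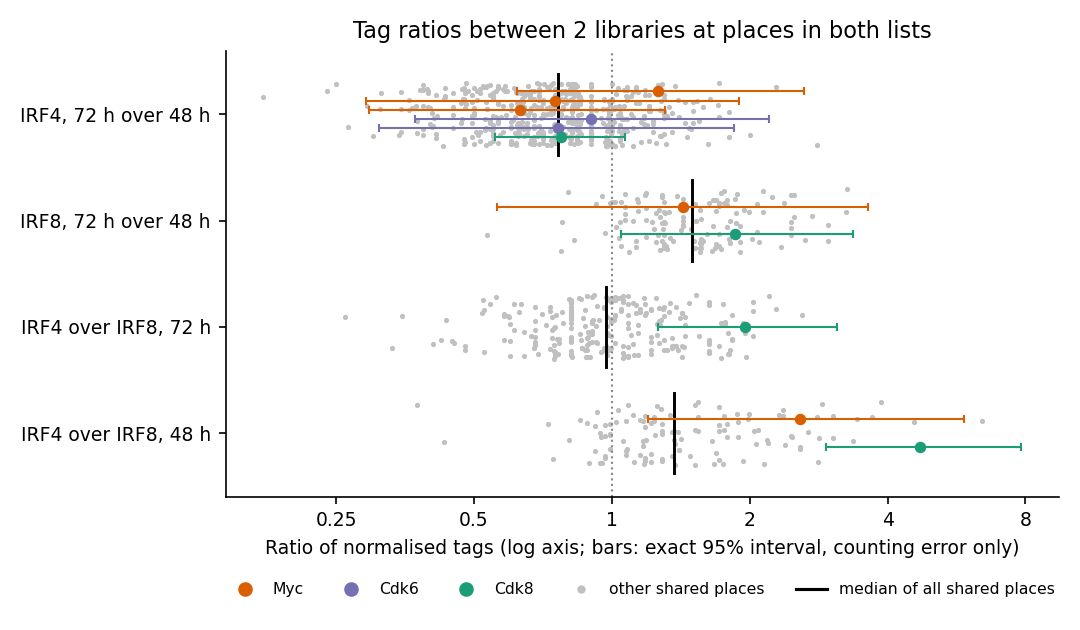
Each row is a ratio of normalised tags between 2 libraries (x axis, log scale) at places in both lists; coloured points are places at Myc, Cdk6 and Cdk8 with exact 95% intervals, grey points all other shared places, and the black line the median of all. The Cdk8 point at 4.70 for IRF4 over IRF8 at 48 h lies to the right of nearly all grey points, and its interval starts at 2.94.

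The 3 inhibitor genes had no interval nearby. For Cdkn1a, which encodes p21, the nearest was 124 kb from the gene body, in the IRF4 48 h list, with 26.5 normalised tags. For Cdkn1b, which encodes p27, it was 267 kb away in the same list, also with 26.5. For Cdkn2c, which encodes the INK4 inhibitor p18, it was 500 kb away in the IRF8 72 h list, with 29.4. All 3 distances exceed those of Ccnd2 and Cdk4, the other genes with none.

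Elements within 100 bp of the centre were counted at the 28 intervals. An EICE, AICE, ISRE core or AP-1 site was present in 1 of 6 intervals of the IRF4 72 h list, where 46.6% of all intervals had one. It was present in 4 of 11 at IRF4 48 h (44.8% of all), 0 of 5 in the GC list (23.3% of all), 1 of 4 at IRF8 72 h (38.6% of all) and 1 of 2 at IRF8 48 h (33.6% of all). Over whole intervals the counts were 3 of 6 at IRF4 72 h (55.5% of all), 5 of 11 at IRF4 48 h (55.8%), 2 of 5 in the GC list (61.6%), 2 of 4 at IRF8 72 h (46.0%) and 2 of 2 at IRF8 48 h (42%). Within 100 bp, the EICE occurred at 2 places (Myc +14.3 kb and Cdk6 +157.5 kb) and the AP-1 site at 2 (Myc +254.8 kb and +340.4 kb). An ISRE core occurred in 1 interval, that of IRF4 at 48 h at Myc +254.8 kb. AICE1 and AICE2 occurred at none of the 28 intervals.

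Among 74 other genes of the MYC network and the cell cycle, 35 (47.3%) had an interval in some list by the 50 kb rule, against 28.1% of all protein-coding genes. The list of the IRF4 72 h library reached 5 of the 74 (6.76%), that of IRF4 at 48 h 10 (13.5%), GC 21 (28.4%), IRF8 at 72 h 13 (17.6%) and IRF8 at 48 h 2 (2.70%). At Mlx, which encodes a dimerisation partner in the extended MYC network, IRF4 had 31.9 normalised tags at 72 h and 79.5 at 48 h, 28.5 kb from the 5′ end and nearer to the start of Fam134c. Neither of these intervals had an element within 100 bp of its centre. IRF8 at 48 h had 22.9 at another place, 43.7 kb from the 5′ end of Mlx and nearer to the start of Tubg1, with an EICE. At Mnt, which encodes a MAX partner that opposes MYC, IRF8 had 55.5 at 72 h and 27.4 at 48 h, at -2.27 kb and -2.36 kb from the 5′ end. Both intervals had an EICE and a PU.1-type site, and both lay inside a GC interval.

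Mdm2, which encodes the ubiquitin ligase of p53, had 61.8 normalised tags for IRF4 at 48 h and 32.6 for IRF8 at 72 h, at -9.26 kb and -9.30 kb, and a GC interval over both. The IRF4 and IRF8 LPS intervals had a PU.1-type site within 100 bp of their centres, and the GC interval had no element there. E2f6, a repressive member of the E2F family, had 75 for IRF8 at 72 h, 60.1 kb from its 5′ end and nearer to the start of Rock2, with an ISRE core. Med13, a subunit of the same Mediator module as CDK8, had 53.0 for IRF4 at 48 h at -23.1 kb, with an AP-1 site. Med13 also had 35.9 for IRF8 at 72 h at 12.6 kb, with an ISRE core, inside a GC interval. The sequence there is repeated, with a median of 10.5 copies. Cdk5, a kinase best known from neurons, had 50 for IRF4 at 48 h at -0.411 kb, nearer to the start of Slc4a2, also with an AP-1 site. The GC list had intervals next to the start of several of these genes: 0.075 kb from a start site of Ccnd1 (cyclin D1), 0.19 kb from one of Gmnn (the replication licensing inhibitor geminin), 0.52 kb from one of Cdkn2a (the p16 and ARF tumour suppressors), 0.572 kb from one of E2f1, 0.688 kb from one of Mxd3 (a MAX partner) and 1.5 kb from one of Ccng2 (cyclin G2). None of these 6 GC intervals had one of the 6 elements within 100 bp of its centre. Of all GC intervals, 23.3% had an EICE, AICE, ISRE core or AP-1 site there, and 5.04% a PU.1-type site. The 6 genes are named because their GC intervals lie nearest to a start site, and no share of all genes is given for such distances.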

How the data were processed

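The genes and lists described here were chosen with earlier results of these data known. The authors called the 4 LPS lists with HOMER findPeaks (factor mode): peaks of 500 bp, spaced by 1000 bp or more, with 1 tag allowed per position, a false discovery rate of 0.001 and, over the surrounding 10000 bp, a fold of at least 4 and a p-value of at most 1e-04, per the file headers. Those headers name no control, and the one for IRF8 at 72 h points to tags marked as replicate 2, so that list may rest on another or a merged library. In the deposited lists the signal is the normalised tag count, scaled to 10000000 tags per library. The score, the number of tags in the peak, the fold over the local region (a ratio), the p-value against that region and the focus ratio (a fraction) are the authors' caller's values, per the file headers, and served no test here. The GC list was called with MACS, per the series' design text, and the deposited file holds positions only. The build is mm9 per the labels. BWA and Bowtie2 stand in the submitters' processing notes and the design text another aligner, so the aligner of each library is not settled; pooling of reads is not given in the sources used here.

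Dividing out the scaling gave whole tags, within 0.05, in 100% of LPS peaks, and with them the exact Poisson intervals at 95% and the exact binomial tests of 2 libraries against their total tags, adjusted by Benjamini-Hochberg over all places shared by both lists (overlap of at least 1 bp) and called at an adjusted p under 0.05. The test of the difference of time ratios, its scaling to the median difference and the similarity search were added after the data were seen. The tests were checked on simulated data with counting error only and no peak threshold. That check does not cover the choice of places by the threshold, or variation between replicates. Sequence copies are counts of 24-base words within 100 bp of a centre in the mm9 genome on both strands, and similar stretches are blastn hits with an e-value of at most 1e-10. Of the other cell cycle genes, the text names the 6 with the most tags in an LPS list and the 6 with a GC interval nearest to a start site. Python 3.11.15, numpy 2.4.6, scipy 1.17.1, pandas 2.3.3, pysam 0.24.0 and numba 0.67.0 were used. Alternatives were other distances, overlaps, windows, tag limits and scaling, and single-copy intervals only.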

Additional observations from a re-analysis of the deposited data

How the results depend on the processing

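With 1 library per group, values have counting error only, and a listed interval rests on as few as 7 tags. No paired analysis was possible because each group has 1 library and the labels give no replicate numbers.

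Within 10 kb of the gene body, the genes described here with a GC interval numbered 1, with 2 intervals, and the IRF8 72 h intervals numbered 2. The other cell cycle genes with an interval then numbered 0 (IRF4, 72 h), 3 (IRF4, 48 h), 11 (GC), 7 (IRF8, 72 h) and 1 (IRF8, 48 h). Shares of all protein-coding genes are given for the 50 kb rule only, so gene counts at other settings have none beside them. Within 100 kb, the IRF4 72 h intervals numbered 5 and the genes with an IRF8 72 h interval 5. With at least the median tags of the pooled LPS lists, 32.6, the IRF4 72 h and IRF8 48 h lists each kept 1 gene with 1 interval, IRF8 72 h kept 2 intervals, and IRF8 48 h had 0 near Myc. Over whole intervals, those with an element numbered 3 (IRF4, 72 h), 2 (GC), 2 (IRF8, 72 h) and 2 (IRF8, 48 h), and within 50 bp IRF8 48 h had 0.

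Scaling to the median of the shared places turned 3 uncalled ratios past 1: Cdk6 +12 kb (1.18) and Cdk8 (1.01) for IRF4 at 72 h over 48 h, and Myc +14.3 kb (0.952) for IRF8. It left 2 called places for IRF8 at 72 h over 48 h, against 17, none (0) for IRF4 over IRF8 at 72 h, against 1 (with 18 at an unadjusted p under 0.05), and 11 for IRF4 over IRF8 at 48 h, against 22; the Cdk8 place stayed called, at 3.44 (adjusted p 1.2e-06 by the exact binomial test). Single-copy intervals alone gave 7 and 9 called places in the IRF8 time and the 48 h comparisons.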
